A study of Homo sapiens with 9 samples.

Results

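The 9 genes described here code for enzymes that make serine and pass its carbon to folate, and they were taken from 18417 genes with a transcript cluster of their own on the array. SHMT2, MTHFD2, MTHFD1L and ALDH1L2 code for mitochondrial folate enzymes, SHMT1 and MTHFD1 for cytosolic ones, and PHGDH, PSAT1 and PSPH for the serine synthesis pathway. Each gene was read from the transcript cluster annotated to its symbol alone, the brightest by its mean over the arrays where there were several (PSPH and MTHFD2 had 2 each). The 9 single-channel arrays came from NCCIT, an established human embryonal carcinoma line with a pluripotent-like state. In dishes that do not let them attach, NCCIT cells gather into embryoid bodies and start to differentiate. Embryoid bodies were kept with 50 mM ethanol, with 50 mM ethanol and FA, with FA, or with no addition, with 1 array of each at day 7 and 1 at day 21, and 1 array held undifferentiated NCCIT cells. What FA stands for, and at which dose, the labels do not say. The sample titles give ethanol and FA for 7 or 21 days, but the treatment protocol describes 7 days of embryoid body culture with ethanol only, so how long the day 21 arrays were exposed rests on the titles. All groups are 1 cell line grown in serum-containing RPMI-1640 medium, which was changed daily in the embryoid body cultures, and nothing in the labels says whether the arrays came from separate cultures.

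Serine is made from a glycolytic intermediate by PHGDH, PSAT1 and PSPH in that order, and serine hydroxymethyltransferases (SHMT1 in the cytosol, SHMT2 in mitochondria) move a carbon unit from it to tetrahydrofolate and leave glycine. In mitochondria MTHFD2 and MTHFD1L carry that unit on to formate, which leaves for the cytosol, where the trifunctional enzyme MTHFD1 puts it back on folate for purine and thymidylate synthesis. ALDH1L2 oxidises formyl-tetrahydrofolate in mitochondria to carbon dioxide with the formation of NADPH. PHGDH, PSAT1, PSPH, SHMT2, MTHFD2 and ALDH1L2 are known targets of ATF4, a transcription factor of the response to amino acid shortage and other stress. Proliferating and pluripotent cells are known for high levels of several of these enzymes.

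RefSeq promoter windows (GRCh38.p14) were at hand for 6 of the 9 genes, and the 250 bases before the start site were searched for 4 short motifs on both strands. The windows of PSAT1 and MTHFD2 are printed because these genes fell with differentiation and lay higher in every pair with ethanol, that of PHGDH because it alone was higher at day 21 than at day 7, and that of MTHFD1 as a cytosolic enzyme gene. MTHFD1 also fell and lay higher in every pair with ethanol, by 0.0023 to 0.0951. PHGDH lay higher in every such pair too, by 0.03 to 0.21. Capitals mark CCAAT or its reverse complement ATTGG, and in the MTHFD1L site the letters TGATGNAA.
PSAT1 promoter, chr9:78296875-78297124, + strand: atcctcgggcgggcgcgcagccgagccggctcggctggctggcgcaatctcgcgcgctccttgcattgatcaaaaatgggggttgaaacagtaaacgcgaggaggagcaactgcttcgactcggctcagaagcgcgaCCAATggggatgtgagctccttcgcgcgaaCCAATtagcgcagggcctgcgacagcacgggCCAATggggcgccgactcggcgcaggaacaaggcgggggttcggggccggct
MTHFD2 promoter, chr2:74198365-74198614, + strand: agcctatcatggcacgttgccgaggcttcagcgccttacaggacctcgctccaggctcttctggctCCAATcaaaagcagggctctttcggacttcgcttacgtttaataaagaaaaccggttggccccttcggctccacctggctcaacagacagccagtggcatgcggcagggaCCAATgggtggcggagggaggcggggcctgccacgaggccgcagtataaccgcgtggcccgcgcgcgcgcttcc
PHGDH promoter, chr1:119711684-119711933, + strand: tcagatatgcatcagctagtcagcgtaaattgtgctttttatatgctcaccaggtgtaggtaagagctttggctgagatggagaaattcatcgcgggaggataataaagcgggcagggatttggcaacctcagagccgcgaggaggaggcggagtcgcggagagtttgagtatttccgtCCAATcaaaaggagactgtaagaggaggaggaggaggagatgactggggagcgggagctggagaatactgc
MTHFD1 promoter, chr14:64388103-64388352, + strand: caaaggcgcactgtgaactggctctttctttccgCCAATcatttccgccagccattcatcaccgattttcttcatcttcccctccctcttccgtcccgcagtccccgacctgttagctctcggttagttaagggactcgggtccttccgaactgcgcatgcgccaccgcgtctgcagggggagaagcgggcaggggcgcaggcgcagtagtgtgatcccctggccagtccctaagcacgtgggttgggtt
MTHFD1L site, chr6:150866346-150866375, + strand: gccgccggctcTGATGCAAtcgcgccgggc
CCAAT, the letters bound by NF-Y, was searched for after the windows had been seen and stood in 8 of 9 windows and in all 6 of these genes, 3 times in PSAT1 and 2 times in MTHFD2, against 32.0% of all 35116 windows in the table. Counted over genes it stood in 10102 of 27305. The 8 windows include 2 overlapping ones of MTHFD1L that hold the same CCAAT. TGATGNAA, the letters of the C/EBP-ATF response element that ATF4 binds, was found in 2 overlapping windows of MTHFD1L, both holding the 1 site printed, against 3.14% of all windows. The E-box CACGTG was found in MTHFD1 and in the same 2 windows of MTHFD1L (6.34% of all windows), and the antioxidant response element core TGACNNNGC in none of the 9 windows (10.9% of all windows). These matches describe letters in a window and nothing about binding in these cells.

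Values are log2 expression from RMA, and each condition had 1 array, so no level has a spread of its own. Effects are means over matched arrays from 1 additive limma model, given ± SE of the fit, in which the residual between arrays stands in for replicate error and p-values measure only the spread between these arrays. All 9 genes passed the filter on dim genes (highest value over the arrays above 7.71, the median of all values). ALDH1L2 passed through its undifferentiated and day 7 values alone, since all 4 of its day 21 values lay below that level. Among the day 7 arrays, the one with ethanol alone correlated least with the rest, at an average Pearson's r of 0.983, where the other 3 had 0.989 to 0.990. The mean level of 12 pluripotency markers was 11.30 in undifferentiated cells, 11.03 to 11.15 in the 4 arrays of day 7 and 9.71 to 10.11 in those of day 21, and 10 of the 12 fell to day 21 (NANOG and POU5F1 had no cluster of their own and were not analysed). The mean of 15 cell cycle genes was 10.89, 10.55 to 10.60 and 10.42 to 10.46 in the same order, and that of 6 neural markers 7.57, 7.43 to 7.69 and 8.92 to 9.06. Of these 6, 4 rose and 1 fell to day 21, from 4.32 for PAX6 to -1.06 for STMN2. In the same order 4 mesenchyme markers averaged 7.689, 7.635 to 7.794 and 8.409 to 8.501. The 4 endoderm markers averaged 8.082, 7.940 to 8.186 and 8.002 to 8.228, and 3 trophoblast markers 8.447, 8.474 to 8.599 and 7.798 to 8.020. The part of these shifts in the results on differentiation and day was not tested, and in bulk samples fewer cells of a type and less RNA per cell cannot be told apart.

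**Figure D1:**
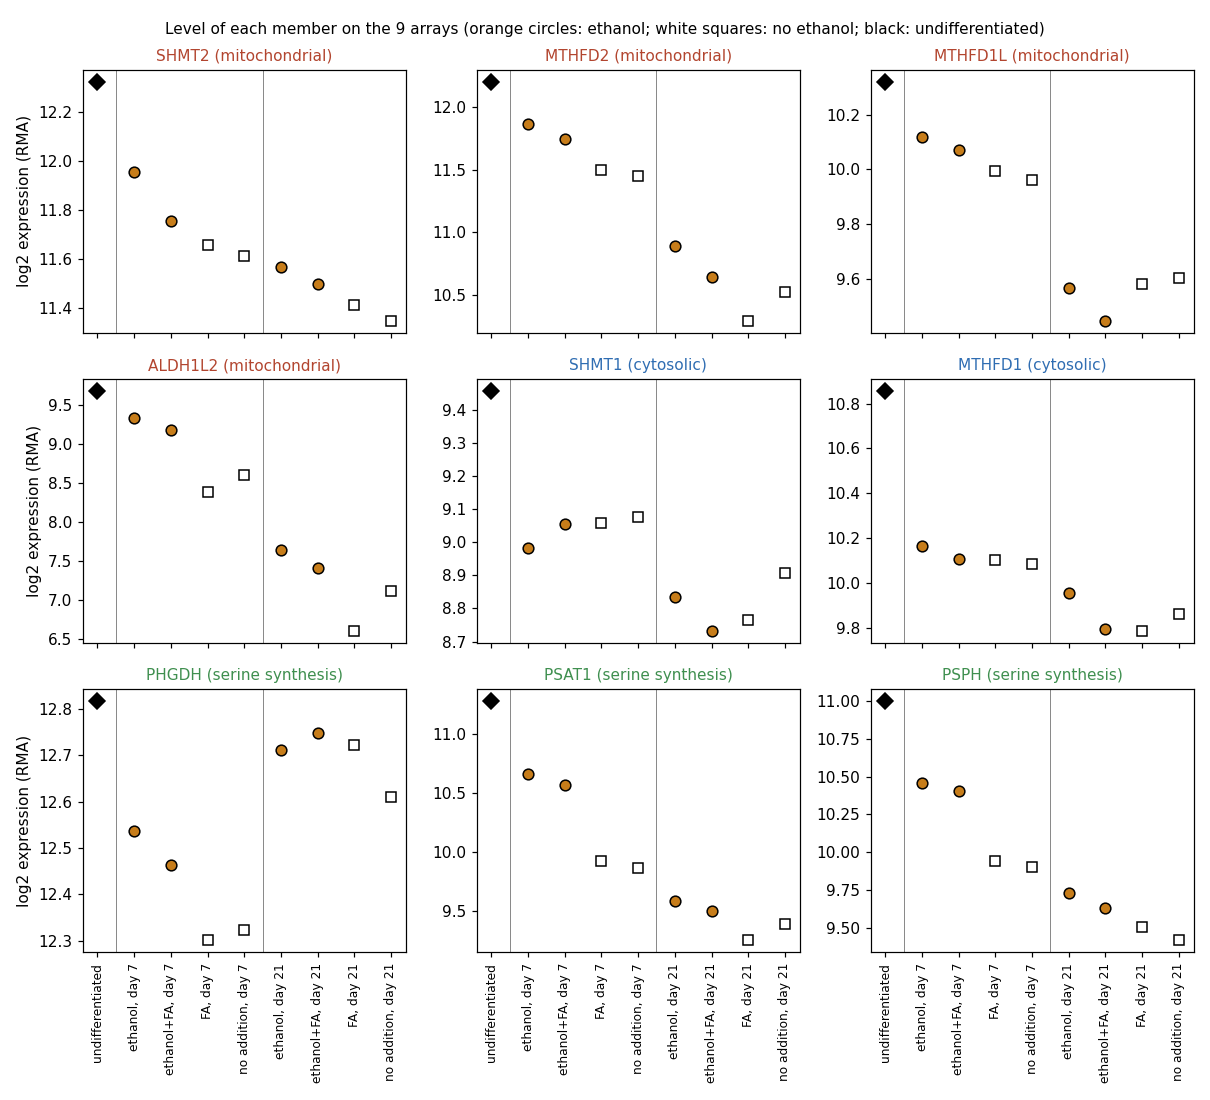
Log2 expression (RMA, y axis, scaled per gene) of the 9 genes on the 9 arrays, 1 point per array, in the order undifferentiated cells, day 7 and day 21. The undifferentiated array is the highest for every gene, the day 21 arrays lie below the day 7 arrays for all but PHGDH, and the orange ethanol points lie above the white points of the same day on both days for SHMT2, MTHFD2, ALDH1L2, PSAT1 and PSPH.

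Embryoid bodies had less of these transcripts than undifferentiated NCCIT cells. From undifferentiated cells to day 7 without addition, 8 of the 9 genes fell and 0 rose, and to day 21 again 8 fell and 0 rose. PSAT1, PSPH and ALDH1L2 fell the most by day 7, each by at least 2.01-fold, and ALDH1L2 fell 6.54-fold by day 21. Among all 12254 genes tested, 13.9% fell and 6.68% rose to day 7, and 21.2% fell and 16.6% rose to day 21. The undifferentiated array was the highest of the 9 arrays for all 9 genes, an order seen in 26.9% of genes tested.

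In the serine synthesis pathway, PSAT1, the aminotransferase of the second step, stood at 11.29 in undifferentiated cells. At day 7 it was at 10.66 with ethanol and 10.57 with ethanol and FA, against 9.92 with FA and 9.86 with no addition, and at day 21 these 4 arrays held 9.58, 9.50, 9.25 and 9.39. Every embryoid body array was therefore below the undifferentiated one, and the 4 arrays of day 21 were below the 4 of day 7. PSAT1 differed from undifferentiated cells by -1.24 ± 0.18 at day 7 (rank 15 from the lowest of 12254 genes, limma adjusted p = 0.00614) and by -2.06 ± 0.18 at day 21 (adjusted p = 0.000132). PSPH, the phosphatase that completes serine, stood at 11.003 in undifferentiated cells, then at 10.46, 10.41, 9.94 and 9.90 at day 7 and at 9.73, 9.63, 9.51 and 9.42 at day 21, the arrays in the same order as for PSAT1. It differed from undifferentiated cells by -1.01 ± 0.13 at day 7 (limma adjusted p = 0.00479) and by -1.61 ± 0.13 at day 21 (adjusted p = 8.01e-05). A second PSPH cluster stood at 10.80 in undifferentiated cells and at 8.83 to 10.40 in embryoid bodies, with its highest embryoid body value also in the day 7 array with ethanol. PSPH has a nearby pseudogene, PSPHP1, whose transcripts may share probes with it.

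PHGDH, which catalyses the first step of serine synthesis, followed another course. It stood at 12.82 in undifferentiated cells, at 12.54, 12.46, 12.30 and 12.32 at day 7 and at 12.71, 12.75, 12.72 and 12.61 at day 21, so that it was lowest at day 7 and nearer to the undifferentiated level at day 21. Its whole range over the 9 arrays was 0.52, the smallest of the 9 genes. PHGDH fell by 0.48 ± 0.10 to day 7 (limma adjusted p = 0.0131) and differed by -0.19 ± 0.10 at day 21, which did not pass (adjusted p = 0.155).

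Of the mitochondrial enzyme genes, ALDH1L2 had the widest range, 3.07 log2 units over the 9 arrays. It stood at 9.68 in undifferentiated cells, at 9.33 with ethanol and 9.19 with ethanol and FA at day 7, against 8.39 with FA and 8.60 with no addition, and at 7.64, 7.41, 6.61 and 7.11 on the same arrays of day 21. Its difference from undifferentiated cells was -1.03 ± 0.12 at day 7 (limma adjusted p = 0.00414) and -2.71 ± 0.12 at day 21 (rank 10 from the lowest, adjusted p = 7.36e-06). ALDH1L2 passed the filter only through its undifferentiated and day 7 values, so the day 21 rank and p are not independent of the filter. MTHFD2, the mitochondrial dehydrogenase and cyclohydrolase, stood at 12.20 in undifferentiated cells, at 11.86, 11.75, 11.50 and 11.45 at day 7 and at 10.89, 10.64, 10.29 and 10.52 at day 21. Its other cluster stood at 12.09, at 11.35 to 11.70 and at 10.26 to 10.85 and ordered the arrays of each day alike. The differences of MTHFD2 were -0.67 ± 0.11 at day 7 (limma adjusted p = 0.00724) and -1.73 ± 0.11 at day 21 (adjusted p = 2.95e-05).

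SHMT2 stood at 12.32 in undifferentiated cells, at 11.95, 11.75, 11.65 and 11.61 at day 7 and at 11.57, 11.50, 11.41 and 11.34 at day 21. Its differences were -0.65 ± 0.10 at day 7 and -0.94 ± 0.10 at day 21 (limma adjusted p = 0.00706 and 0.000382), so most of its fall was present at day 7. MTHFD1L, the mitochondrial formate-tetrahydrofolate ligase, stood at 10.32 in undifferentiated cells, at 10.12, 10.07, 9.99 and 9.96 at day 7 and at 9.57, 9.45, 9.58 and 9.61 at day 21. It differed by -0.27 ± 0.10 at day 7 and did not pass there (limma adjusted p = 0.106), while at day 21 the difference of -0.76 ± 0.10 passed (adjusted p = 0.00113). With an ethanol by day term added to the model, the day 7 difference of MTHFD1L was -0.32 ± 0.09 and passed (limma adjusted p = 0.0459).

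Both cytosolic enzyme genes fell as well, largely by day 7. MTHFD1 stood at 10.86 in undifferentiated cells, at 10.16, 10.11, 10.10 and 10.09 at day 7 and at 9.96, 9.80, 9.79 and 9.86 at day 21, with differences of -0.73 ± 0.09 and -0.99 ± 0.09 (limma adjusted p = 0.00447 and 0.000132). SHMT1 stood at 9.46, then at 8.98, 9.06, 9.06 and 9.08 at day 7 and at 8.84, 8.73, 8.77 and 8.91 at day 21. Its differences were -0.36 ± 0.09 at day 7 and -0.60 ± 0.09 at day 21 (limma adjusted p = 0.0282 and 0.0018). The median difference from undifferentiated cells at day 21 was -1.61 for the 3 serine synthesis genes, -1.33 for the 4 mitochondrial genes and -0.79 for the 2 cytosolic genes, beside -0.06 over all genes tested. The ranges of these groups overlapped, at -2.06 to -0.19, -2.71 to -0.76 and -0.99 to -0.60 in the same order. These differences share the single undifferentiated array. Without the untreated day 7 array, 4.41% of all genes passed for day 7 in place of 20.6%, and SHMT1 (adjusted p = 0.127) and PHGDH (adjusted p = 0.0735) were not among them. After median centring of the arrays, 553 genes were higher and 2498 lower at day 7, against 818 and 1702 with the values as deposited.

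**Figure D2:**
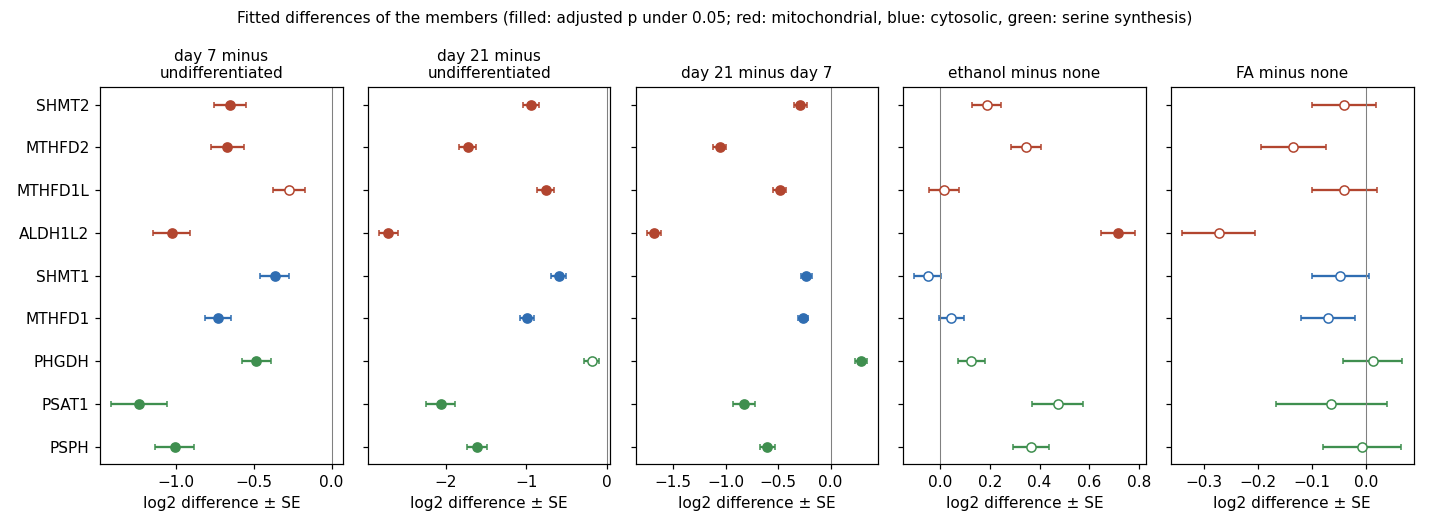
Fitted log2 differences (x axis, ± SE of the limma fit) of the 9 genes for embryoid bodies with no addition at day 7 and at day 21 against undifferentiated cells, for day 21 against day 7, for ethanol against none and for FA against none. Filled points passed adjusted p under 0.05: nearly all points of the first 3 panels, ALDH1L2 alone for ethanol and none for FA.

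Between day 7 and day 21 all 9 genes changed, 8 lower and PHGDH higher at day 21. Of all genes tested 22.6% were lower and 26.3% higher (2771 and 3224 genes, against 2106 and 3841 after median centring of the arrays). ALDH1L2, which passed the filter through its undifferentiated and day 7 values alone, fell by 1.68 ± 0.07 (limma adjusted p = 8.62e-07). MTHFD2 was at -1.06 ± 0.06 (limma adjusted p = 5.34e-06), followed by PSAT1 at -0.82 ± 0.10, PSPH at -0.60 ± 0.07 and MTHFD1L at -0.49 ± 0.06. SHMT2 (-0.29 ± 0.06), MTHFD1 (-0.26 ± 0.05) and SHMT1 (-0.23 ± 0.05) fell least, by 1.22-fold or less. PHGDH rose by 0.29 ± 0.06, 1.22-fold (adjusted p = 0.00308), in 4 of 4 matched pairs, with differences of 0.17 to 0.42. For the 8 genes that fell, all 4 arrays of day 21 lay below all 4 of day 7, an order seen in 21.4% of genes tested, and for PHGDH all 4 lay above (24.6%). The 3 genes of serine synthesis thus split, with PSAT1 and PSPH lower and PHGDH higher at day 21.

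With ethanol the mitochondrial gene ALDH1L2 rose. PSAT1, PSPH and MTHFD2 had the next largest differences, 0.47, 0.36 and 0.35, none of which passed over all genes, and the cytosolic genes SHMT1 and MTHFD1 differed by -0.05 and 0.05. ALDH1L2 was the 1 gene of the 9 that passed, 1.64-fold higher, and 0 were lower, where 0.563% of all genes tested rose and 0.122% fell. At an unadjusted p under 0.05 limma gave 5 of the 9 and 17.5% of genes tested. At day 21 the ALDH1L2 array with ethanol exceeded its match by 0.80 in the presence of FA and by 0.53 in its absence, and at day 7 by 0.80 and 0.73. The mean, 0.71 ± 0.07, was at rank 9 of 12254 genes (limma adjusted p = 0.0207), and the call was lost without any 1 of 5 arrays (with no addition at day 7, FA at either day, or either ethanol array of day 21), at adjusted p of 0.057 to 0.148 and means of 0.67 to 0.74. Few genes of any kind passed in these fits: 3 of 12254 without the FA array of day 21, and 0 without any other of the 5. Without the day 7 array with ethanol alone, which stood apart, the ALDH1L2 mean was 0.73 ± 0.07 (limma adjusted p = 0.0107). In that fit 1.73% of all genes tested passed for ethanol, against 0.685% with all arrays.

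PSAT1 was higher with ethanol by 0.25 and 0.19 at day 21, in the pairs with and without FA, and by 0.65 and 0.80 at day 7. The mean of 0.47 ± 0.10 was at rank 53 of 12254 and did not pass (limma adjusted p = 0.0926), and it passed where the model held an ethanol by day term (adjusted p = 0.0237, with 1.53% of all genes passing against 0.685% without the term). In the same order PSPH was higher by 0.13 and 0.32 at day 21 and by 0.46 and 0.55 at day 7, a mean of 0.36 ± 0.07 at rank 130 (adjusted p = 0.0724). With the mean of both PSPH clusters the effect was 0.48 ± 0.07 and passed (limma adjusted p = 0.0416), as it did with the ethanol by day term (adjusted p = 0.0354). MTHFD2 was higher by 0.36 and 0.37 at day 21 and by 0.25 and 0.42 at day 7, a mean of 0.35 ± 0.06 at rank 145 (adjusted p = 0.0533). Without the array that stood apart MTHFD2 had a mean of 0.35 ± 0.07 and passed (adjusted p = 0.0486), whereas PSAT1 (0.40 ± 0.10, adjusted p = 0.104) and PSPH (0.32 ± 0.07, adjusted p = 0.078) did not. The MTHFD2 mean hardly moved in that fit, in which 1.73% of all genes tested passed for ethanol.

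The other members had smaller ethanol differences, none of which passed. SHMT2 was higher by 0.09 and 0.10 with FA, at day 21 and day 7, and by 0.22 and 0.34 without FA, a mean of 0.19 ± 0.06 (limma adjusted p = 0.175). PHGDH had a mean of 0.13 ± 0.06 (adjusted p = 0.288), MTHFD1 of 0.05 ± 0.05, MTHFD1L of 0.02 ± 0.06 and SHMT1 of -0.05 ± 0.05. In all, 7 of the 9 genes were higher with ethanol in all 4 pairs, against 18.5% of genes tested, and the differences of SHMT1 ran from -0.0947 to -0.0023. The 7 include MTHFD1, with differences of 0.0023 to 0.0951. The members were chosen with earlier results of these data known, so this count is a description and not independent support. At day 21 both ethanol arrays lay above both arrays without ethanol for SHMT2, MTHFD2, ALDH1L2, PSAT1 and PSPH (24.8% of genes tested), while MTHFD1L had both ethanol arrays below the others (14.5%) and the groups of SHMT1, MTHFD1 and PHGDH overlapped. At day 7 they lay above for 8 genes (28.1% of genes tested) and below for SHMT1 (19.8%). The median ethanol effect was 0.36 over serine synthesis genes, 0.27 over mitochondrial genes and -0.0019 over cytosolic genes, beside 0.02 over all genes tested. In the same order the effects ran from 0.13 to 0.47, from 0.02 to 0.71 and from -0.05 to 0.05, so the mitochondrial range overlapped both others. With ethanol 0 of 12 pluripotency and 0 of 15 cell cycle markers passed, and 1 of 6 neural markers did, the adhesion gene NCAM1 (0.47). The mean pluripotency marker level was 10.11 and 9.95 with ethanol at day 21, against 9.71 and 9.82 without it, and 11.03 and 11.14 with ethanol at day 7, against 11.14 and 11.13 without it. The part of this day 21 difference in the ethanol values was not tested.

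**Figure D3:**
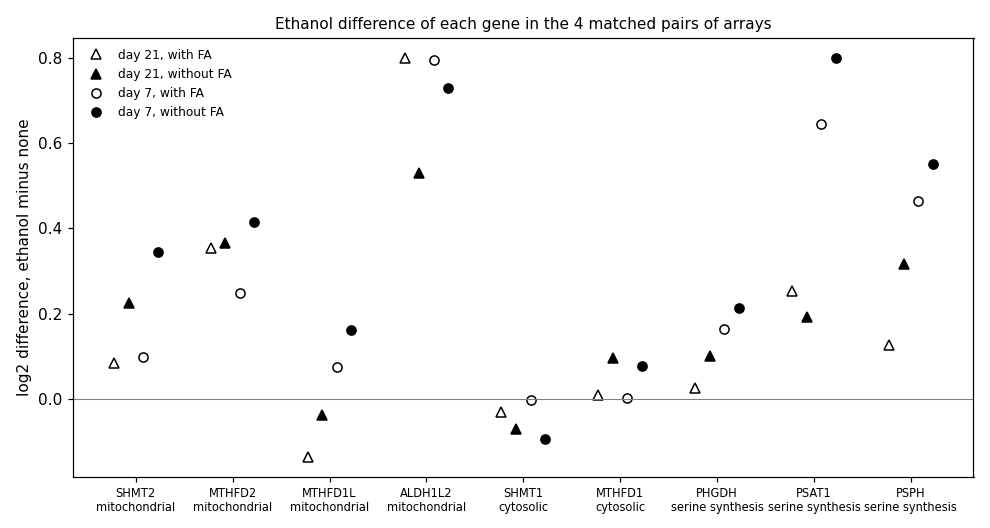
Log2 difference, ethanol minus no ethanol (y axis), of each gene in the 4 pairs of arrays matched on day and FA, 1 point per pair. ALDH1L2 lies between 0.53 and 0.80 in all 4 pairs, PSAT1 and PSPH lie lower in the day 21 pairs than in the day 7 pairs, and SHMT1 and MTHFD1 stay within 0.10 of 0.

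Whether mitochondrial and cytosolic enzymes changed unequally was read from the log2 ratio of paralogues within each array, whose change between arrays is interpretable although its level is not. The ratio of MTHFD2 to MTHFD1 at day 21 was 0.93 with ethanol and 0.85 with ethanol and FA, against 0.50 with FA and 0.66 with no addition, and at day 7 it was 1.70, 1.64, 1.40 and 1.36 on the same arrays. All 4 values of day 21 were below all 4 of day 7, and on each day the ethanol arrays were above the others. The ratio was lower at day 21 by 0.79 on average (exact two-sided permutation test over the 70 splits of the 8 arrays, which leaves their matching on ethanol and FA aside, p = 0.0286, the smallest it can give, and 0.129 after Benjamini-Hochberg adjustment over 9 tests). Tested by the 16 sign changes of the 4 matched differences, a choice made after seeing the data, the exact p for day was 0.125 for this ratio, the smallest that test can give. With ethanol it was higher by 0.25 to 0.35 in 4 of 4 pairs, with a mean of 0.30. The ratio of SHMT2 to SHMT1 was likewise higher with ethanol in 4 of 4 pairs, by 0.10 to 0.44 with a mean of 0.24, and differed by -0.05 between day 21 and day 7 (exact permutation p = 0.686, adjusted p = 0.844). The ratio of MTHFD1L to MTHFD1 was lower at day 21 by 0.22 (exact permutation p = 0.0286, adjusted p = 0.129) and differed by -0.03 with ethanol, in both directions among the pairs. For ethanol and FA the exact sign-change test over 4 pairs cannot go below 0.125, the p of both ethanol increases (adjusted p = 0.225). The ratio of MTHFD1L to MTHFD1 had the same p and adjusted p with FA, higher in 4 of 4 pairs by only 0.03 on average. The smallest adjusted p that the 9 exact tests could give together was 0.0857, so none of them could pass and the ratios are given as a description.

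**Figure D4:**
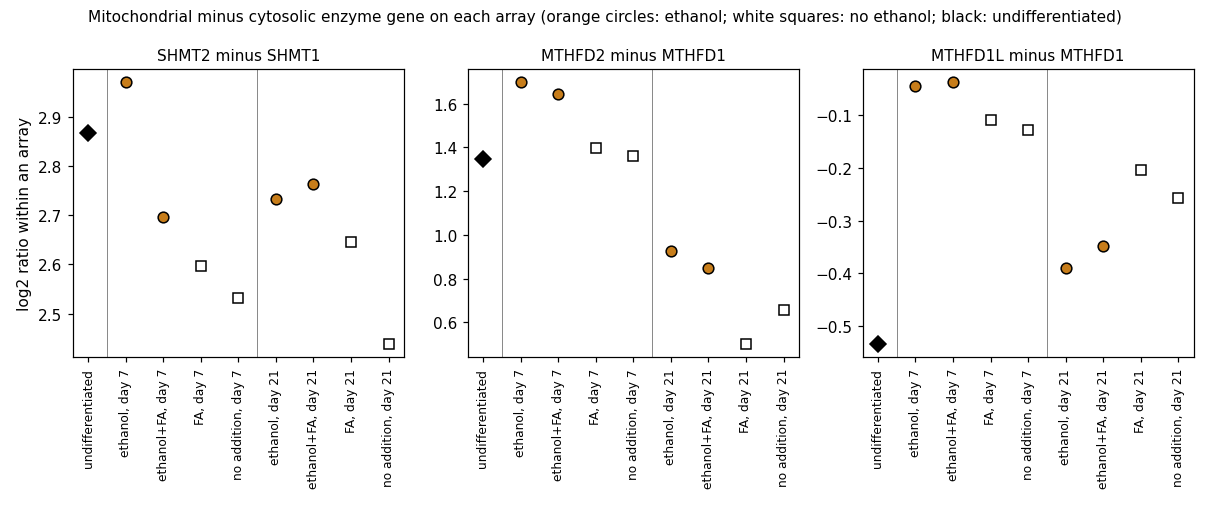
Log2 ratio of the mitochondrial to the cytosolic enzyme gene within each of the 9 arrays (y axis, scaled per panel), for SHMT2 and SHMT1, MTHFD2 and MTHFD1, and MTHFD1L and MTHFD1. The ethanol points lie above the points without ethanol on the same day in the first 2 panels, and the day 21 points lie below the day 7 points in the last 2.

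With FA 0 of the 9 genes and 0 of the 12254 genes tested passed (0.00% called). At an unadjusted p under 0.05 limma gave 1 member, ALDH1L2, and 121 genes. The FA differences of ALDH1L2 were -0.23 and -0.50 at day 21, with and without ethanol, and -0.15 and -0.21 at day 7, with a mean of -0.27 ± 0.07 (unadjusted p = 0.00379, rank 11 from the lowest). Its -0.50 and its ethanol difference of 0.80 at day 21 share the FA array of that day, at 6.61. MTHFD2 was next at -0.13 ± 0.06, lower in 3 of 4 pairs, and the other 7 genes had means between -0.07 and 0.01.

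No interaction passed for any member. For ethanol by day 0.00816% of genes were called, and at an unadjusted p under 0.05 limma gave PSAT1 and PSPH among 917 genes. The ethanol effect on PSAT1 was 0.22 at day 21 and 0.72 at day 7, a difference of -0.50 ± 0.11 (limma adjusted p = 0.274), and that on PSPH was 0.22 and 0.51 (-0.29 ± 0.10, adjusted p = 0.6). ALDH1L2 had ethanol effects of 0.67 and 0.76 and MTHFD2 of 0.36 and 0.33 on these days, with interactions of -0.10 ± 0.14 and 0.03 ± 0.13. Ethanol by FA and FA by day called 0.00% of genes and 0 members, and no member had an unadjusted p under 0.05 (100 and 1496 genes did). For ethanol by FA the difference in SHMT2 was -0.19 ± 0.11 (adjusted p = 0.994).

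Of 21 other tested genes for serine, glycine and folate, 4 fell and 0 rose to day 7, where 13.9% of all genes tested fell and 6.68% rose. To day 21, 10 fell and 3 rose, beside 21.2% and 16.6% of all genes, and the medians were -0.24 at day 7 and -0.19 at day 21. GART and ATIC, which use the formyl-folate that MTHFD1 makes for purine synthesis, were at -1.04 and -0.87 at day 21, and GGH, which trims the glutamate tail of folates, rose by 0.98. Between day 7 and day 21, 6 rose and 7 fell, beside 26.3% and 22.6% of all genes, and with ethanol none of the 21 passed (median 0.05). Of 4 tested methyl cycle genes, 2 fell to day 7 and 2 to day 21, and CTH, which makes cysteine from cystathionine, was at -2.00 at day 21 and rose by 0.40 with ethanol.

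Of 22 tested genes of ATF4 and the amino acid response, 11 fell and 2 rose to day 7 (13.9% and 6.68% of all genes tested), 16 fell and 2 rose to day 21 (21.2% and 16.6%), and 15 fell and 3 rose between the days (22.6% and 26.3%). With ethanol 6 of the 22 rose and 0 fell (0.563% and 0.122% of all genes), with a median of 0.15. The mean difference was above 0 for 18 of the 22. It was below 0 for DDIT3 (-0.38), DDIT4 (-0.26), VLDLR (-0.24) and STC2 (-0.20), none of which passed. CHAC1, a glutathione-degrading enzyme gene, stood at 9.96 and 9.60 with ethanol, against 8.88 and 8.93 without it at day 7, and rose by 0.68 ± 0.09 with ethanol (limma adjusted p = 0.0294). The transporter genes SLC7A11 (0.88), SLC7A5 (0.85) and SLC1A4 (0.65), of which SLC1A4 carries serine and alanine, rose too. The calls of these 4 genes were lost without single arrays, with 2 or 3 of 9 such fits passing each. These passes include the fit without the undifferentiated array, which has a term of its own and cannot change an ethanol result. Without the day 7 array with FA or with no addition, or either ethanol array of day 21, 0 of all genes tested passed for ethanol. At day 21 CHAC1 (-2.82 ± 0.16), SLC7A11 (-2.56 ± 0.22) and ASNS, the asparagine synthetase gene (-1.99 ± 0.12), had fallen from undifferentiated cells, and at day 7 CHAC1 (-1.47), PCK2 (-1.36), SESN2 (-1.29) and SLC7A5 (-1.07). Between day 7 and day 21 SLC7A11 (-1.51), CHAC1 (-1.36) and ASNS (-1.01) fell further. ATF4 itself fell by 0.72 to day 7 and differed by 0.06 with ethanol. With FA the largest differences were in CHAC1 (-0.17), SLC1A4 (-0.16), DDIT4 (0.14) and SLC38A2 (-0.13), none of which passed. Several genes of this list were known from earlier results of these data, so the counts are a description and not independent support.

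Over the 9 arrays the profiles of 8 members were alike and that of PHGDH was not. Pearson's r between PHGDH and each other member lay between -0.31 and 0.14, and between the other 8 it lay between 0.81 and 0.99. The closest pairs were PSAT1 with PSPH (r = 0.994) and MTHFD2 with ALDH1L2 (r = 0.993). Among the tested genes, with small RNAs and provisional names left out, the profile most like that of PSAT1 was GOT1 (r = 0.996), a cytosolic aspartate aminotransferase gene, and that most like PSPH was CCNE1 (r = 0.994), the cyclin E1 gene. MTHFD2 was most like PMAIP1 (r = 0.993), a cell death gene, which was also next after MTHFD2 for ALDH1L2 (r = 0.990). MTHFD1 was most like GART (r = 0.995) and HASPIN (r = 0.991), SHMT2 like LRRC59 (r = 0.994) and SLCO4A1 (r = 0.992), and MTHFD1L like NECTIN2 (r = 0.995) and DPYSL2 (r = 0.987). SHMT1 was most like UTP11 and SKA1 (both r = 0.986) and PHGDH like DNTTIP1 (r = 0.992) and ECHS1 (r = 0.991). All points share the same arrays and the large steps between undifferentiated cells, day 7 and day 21, so these values describe the profiles only. With the mean of each day removed from the 8 embryoid body arrays, the r of PHGDH with the other members ran from -0.73 (SHMT1) to 0.91 (PSPH), and that of MTHFD2 with ALDH1L2 was 0.96. The likeness among the other 8 members did not hold throughout there. SHMT1 was at -0.58 with SHMT2 and -0.46 with PSPH, and MTHFD1L at 0.27 with ALDH1L2 and 0.56 with PSAT1.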

How the data were processed

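RNA of 9 samples was hybridised to Affymetrix arrays, 1 per condition. The deposited values are log2 expression per transcript cluster, which per the submitters' processing notes the authors made with RMA (Affymetrix Expression Console, version 1.3.1); the log base was read from the value range (2.49 to 14.3), and array medians were 7.67 to 7.76. Clusters were named from the platform annotation: of 33297 clusters, 19460 had 1 symbol, 1754 several and 12083 none there, and the brightest cluster stood for each of 769 genes with several. Genes whose highest value exceeded 7.71 were tested (12254 of 18417). limma 3.58.1 in R 4.3.3 fitted ethanol, FA, day and the undifferentiated state additively (4 residual degrees of freedom, 3 with an interaction), with p-values adjusted by Benjamini-Hochberg over all genes tested and a threshold of 0.05. Paralogue ratios were tested by exact permutation. The fit was tested on simulated data. Members and gene lists were chosen with earlier results of these data known. Beside the members, the text names the 4 listed pathway genes with the largest difference per comparison and the 2 genes most like each member. The search for these 2 left out small RNAs and provisional or serial names (such as LOC, LINC, KIAA, FAM and TMEM). ATIC, ATF4, NCAM1, PAX6, STMN2, DDIT3, VLDLR, STC2 and, for ethanol, DDIT4 were named after their values were seen. Alternatives were array centring, filters, cluster choice, the variance prior, an ethanol by day term and leaving out each array. The number of arrays limits the precision.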

Additional observations from a re-analysis of the deposited data

Results flagged for a closer look

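In 4 cases the pairs of arrays of one condition moved one way and those of the other the opposite way, and no interaction passed. The ethanol difference of MTHFD1L was -0.0868 at day 21 and 0.118 at day 7 (ethanol by day, limma adjusted p = 0.748), an opposition seen in 10.3% of genes tested. The FA difference of PHGDH was 0.0744 at day 21 and -0.0478 at day 7 (FA by day, limma adjusted p = 0.571, 23.1% of genes). The FA difference of SHMT2 was -0.1361 with ethanol and 0.056 without it, and that of PSPH was -0.0759 with ethanol and 0.0622 without it (ethanol by FA, limma adjusted p = 0.994 for both, 6.63% of genes).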

How the results depend on the processing

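The directions and calls of all 9 genes between day 21 and day 7 were the same in every alternative run. For ethanol the number of the 9 genes that rose was 1, where 0.685% of all genes passed in either direction. It was 2 with a stricter filter on the mean (1.02% of all genes) and with the mean of all clusters (0.68%). It was 3 with an intensity trend in the prior variance (1.26%) and 3 with an added ethanol by day term (1.53%). On leaving out 1 array it was 0 to 2 (0% to 1.73%). The genes gained beside ALDH1L2 were MTHFD2 (stricter filter, trend), PSPH (mean of clusters, trend, term) and PSAT1 (term). Leaving out 1 array moved the ethanol effect of MTHFD1L between -0.0287 and 0.0618, and the FA effects of SHMT2 between -0.0752 and 0.0085, of MTHFD1L between -0.0839 and 0.0067, of PHGDH between -0.0268 and 0.0506, of PSAT1 between -0.1581 and 0.0187, of PSPH between -0.0666 and 0.0527 and of DDIT4 between -0.0274 and 0.2555; the cause was not tested. Over all genes, ethanol called 84, 54 to 188 under other settings and 0 to 212 on leaving out 1 array, and differentiation to day 7 called 2520, and 540 to 3833 on leaving out 1 array. SHMT1 passed for day 7 in 4 of 8 such fits. No paired analysis was possible because the labels carry no replicate numbers to pair on; arrays were matched by day, ethanol and FA only, as in the pairwise differences and sign-change tests.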

Other observations

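Some folate and serine genes outside the 9 were higher at day 21, and are named here after their values were seen. GGH, which removes glutamates from folates, stood at 8.11, 7.78, 8.003 and 8.04 at day 21 (ethanol, ethanol and FA, FA, no addition), against 6.80, 6.93, 6.59 and 6.69 at day 7, and rose by 1.23 ± 0.09 (limma adjusted p = 2.07e-05). The serine racemase gene SRR (0.84), the folate transporter gene SLC46A1 (0.61), the mitochondrial serine transporter gene SFXN1 (0.51), the methionine synthase gene MTR (0.33) and the thymidylate synthase gene TYMS (0.19) also rose, each in 4 of 4 pairs (30.9% of genes tested were higher in all 4). With GGH these are the 6 that rose among the 21 other tested genes for serine, glycine and folate, of which 7 fell. That share is near the one over all genes tested, of which 26.3% rose and 22.6% fell.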
